A study of Homo sapiens with 8 samples.

Results

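The 7 genes described here encode the core proteins that follow the growing plus ends of microtubules: CLASP1, CLASP2, CLIP1, MAPRE1, MAPRE2, MAPRE3 and CKAP5. They were examined for binding of their RNA by RBFOX2, a splicing regulator, in the cell line HEK293T, which derives from human embryonic kidney. The genes were taken by name. A peak was given to a gene when its midpoint lay within the RefSeq span of that gene on GRCh38 and it lay on the strand of the gene, which is called the sense strand here. All 7 genes had peaks, among 10503 protein-coding genes of known strand that did, and they held 1352 of the 1118316 peaks in the deposited lists.

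The series used eCLIP, in which ultraviolet light links proteins to the RNA they touch, an antibody pulls down RBFOX2 (the immunoprecipitation, IP), and the RNA attached to it is sequenced. It has 4 IP libraries and 4 input libraries, all from HEK293T cells irradiated with 400 mJ/cm2 at 254 nm, and the input was a 2% share set aside from the same sample. No other treatment, knockdown or control antibody is given in the labels, so the only contrast is IP against input. Nothing in the labels says that the replicates came from separate cultures, and the p-values below then measure only the spread between these samples, which may be technical. The 4 lists, 1 per IP against the input of the same number, held 267691, 281701, 288305 and 280619 peaks, of which 328, 367, 324 and 333 lay in the 7 genes. Each peak carries a log2 fold of IP over input and a −log10 p, both computed by the authors. Read counts were not used here, so the depth behind a fold is unknown.

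Microtubules grow and shrink mainly at their plus ends, and plus-end tracking proteins gather there to set growth, pausing and contact with the cell cortex, organelles and kinetochores. MAPRE1, MAPRE2 and MAPRE3 encode the end-binding (EB) proteins, which recognise the growing end itself and recruit most of the others. CLIP1 encodes CLIP-170, which reaches the end through the EB proteins, CLASP1 and CLASP2 encode CLIP-associating proteins that stabilise microtubules and promote their rescue, and CKAP5 encodes ch-TOG, which adds tubulin at the growing end. RBFOX2 binds GCAUG in RNA, read as GCATG in DNA, and acts on alternative exons mostly from sites in the introns beside them.

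The sequence at hand covered 250 bases before to 50 bases after the annotated transcript starts of these genes, in 11 windows, from RefSeq on GRCh38.p14. The motif was searched as the 5 letters GCATG and in its longer form TGCATG, which contains it. GCATG stood on the sense strand in 2 of the 11 windows (18.2%), against 19.6% of 35116 such windows of all genes, and on either strand in 3 (27.3%), against 29.5%. TGCATG stood on the sense strand in 1 window (9.09%), against 5.23% of all windows. Both sense matches are printed, in the genes' own direction with GCATG in capitals, together with the stretches near the starts of CLASP1 and MAPRE1 that were covered by a peak in all 4 lists, because these show that motif and peak lay in different windows.
MAPRE3, chr2:27014538-27014566, + strand: gtgggagggggcGCATGctgggctccagg
CLASP2, chr3:33645550-33645578, − strand: aattttttagatGCATGgagaatttttac
CLASP1, chr2:121649426-121649455, − strand: caccaagcgcttaacctcattggggtggag
MAPRE1, chr20:32819974-32820003, + strand: cgaagacggaaccggagccggttgcgggca

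The MAPRE3 match began 204 bases before an annotated start and the CLASP2 match 92 bases before one. No list had a sense peak in either window. RNA that begins at those starts does not hold the matches, so these windows cannot show whether peaks and motif keep apart. The CLASP1 and MAPRE1 stretches hold no GCATG. Neither region was set apart from input in the limma test described with the recurrent regions (adjusted p = 0.549 for CLASP1 and 0.807 for MAPRE1). The log2 folds at the CLASP1 start were 0.58, 0.00, −0.58 and 1.58 in replicates 1 to 4, and those at the MAPRE1 start were −1.59, 0.32, 0.59 and 1.58. Both sets span 0. A match is only a match of letters, and the sequence of the rest of these genes, where most of the peaks lay, was not analysed here.

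The genes differ in length, so the number of peaks is given per length. CLASP1 (chr2:121337776-121649462, − strand, 311687 nt) had 122, 131, 116 and 124 peaks in replicates 1 to 4, or 39.5 ± 1.98 per 100 kb (SD, n = 4 here and below). CLASP2 (chr3:33496245-33718254, − strand, 222010 nt) had 86, 99, 72 and 94 peaks, the same density at 39.5 ± 5.31 per 100 kb. The means of these paralogs were thus alike, with CLASP2 the more variable between lists.

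Among the EB genes, MAPRE1 (chr20:32819777-32850405, + strand, 30629 nt) had 13, 15, 14 and 10 peaks, or 42.4 ± 7.05 per 100 kb. MAPRE3 (chr2:26970637-27027219, + strand, 56583 nt) had 20, 18, 14 and 14 peaks, or 29.2 ± 5.30 per 100 kb. MAPRE2 (chr18:34977027-35143470, + strand, 166444 nt) had 29, 31, 41 and 32 peaks, or 19.98 ± 3.19 per 100 kb. The highest count of MAPRE2, in replicate 3, came without a higher share of peaks above input.

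CLIP1 (chr12:122271469-122422956, − strand, 151488 nt) had 30, 33, 37 and 29 peaks, or 21.3 ± 2.37 per 100 kb. CKAP5 (chr11:46743048-46846280, − strand, 103233 nt) had 28, 40, 30 and 30 peaks, or 31.0 ± 5.25 per 100 kb, with replicate 2 above the other three. In order of density the genes ran MAPRE1, CLASP1, CLASP2, CKAP5, MAPRE3, CLIP1 and MAPRE2. Of the 21 pairs of genes, 11 had ranges that did not overlap between the genes, and 16 reached the smallest p that an exact two-sided sign-flip permutation over 4 replicates can give, 0.13 (0.164 at the lowest after adjustment over the 21 pairs). Of neighbours in this order, only MAPRE3 and CLIP1 had ranges that did not overlap. The design cannot reach 0.05 for such a pair.

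Peaks lay in different places in the different genes. In MAPRE3, 56.9% ± 11.8 of the peaks lay in the last 5 kb of the span, at its 3′ end, and in MAPRE1, the shortest gene, 27.3% ± 4.97 did. The share was 16.8% ± 5.71 in MAPRE2 and 15.1% ± 2.58 in CKAP5. In CLIP1 it was 5.58% ± 1.95, in CLASP1 2.22% ± 0.340 and in CLASP2 1.86% ± 1.74. A stretch of 5 kb is a larger part of MAPRE1 (30.6 kb) or MAPRE3 (56.6 kb) than of CKAP5 (103.2 kb) or MAPRE2 (166.4 kb). These shares are not adjusted for that, so they do not rank the genes by how far peaks gathered at the 3′ end. The CLASP peaks were spread along the whole of their long spans. The gene table used gives no exons, so whether a peak lay in an exon, an intron or a UTR was not analysed here.

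**Figure D1:**
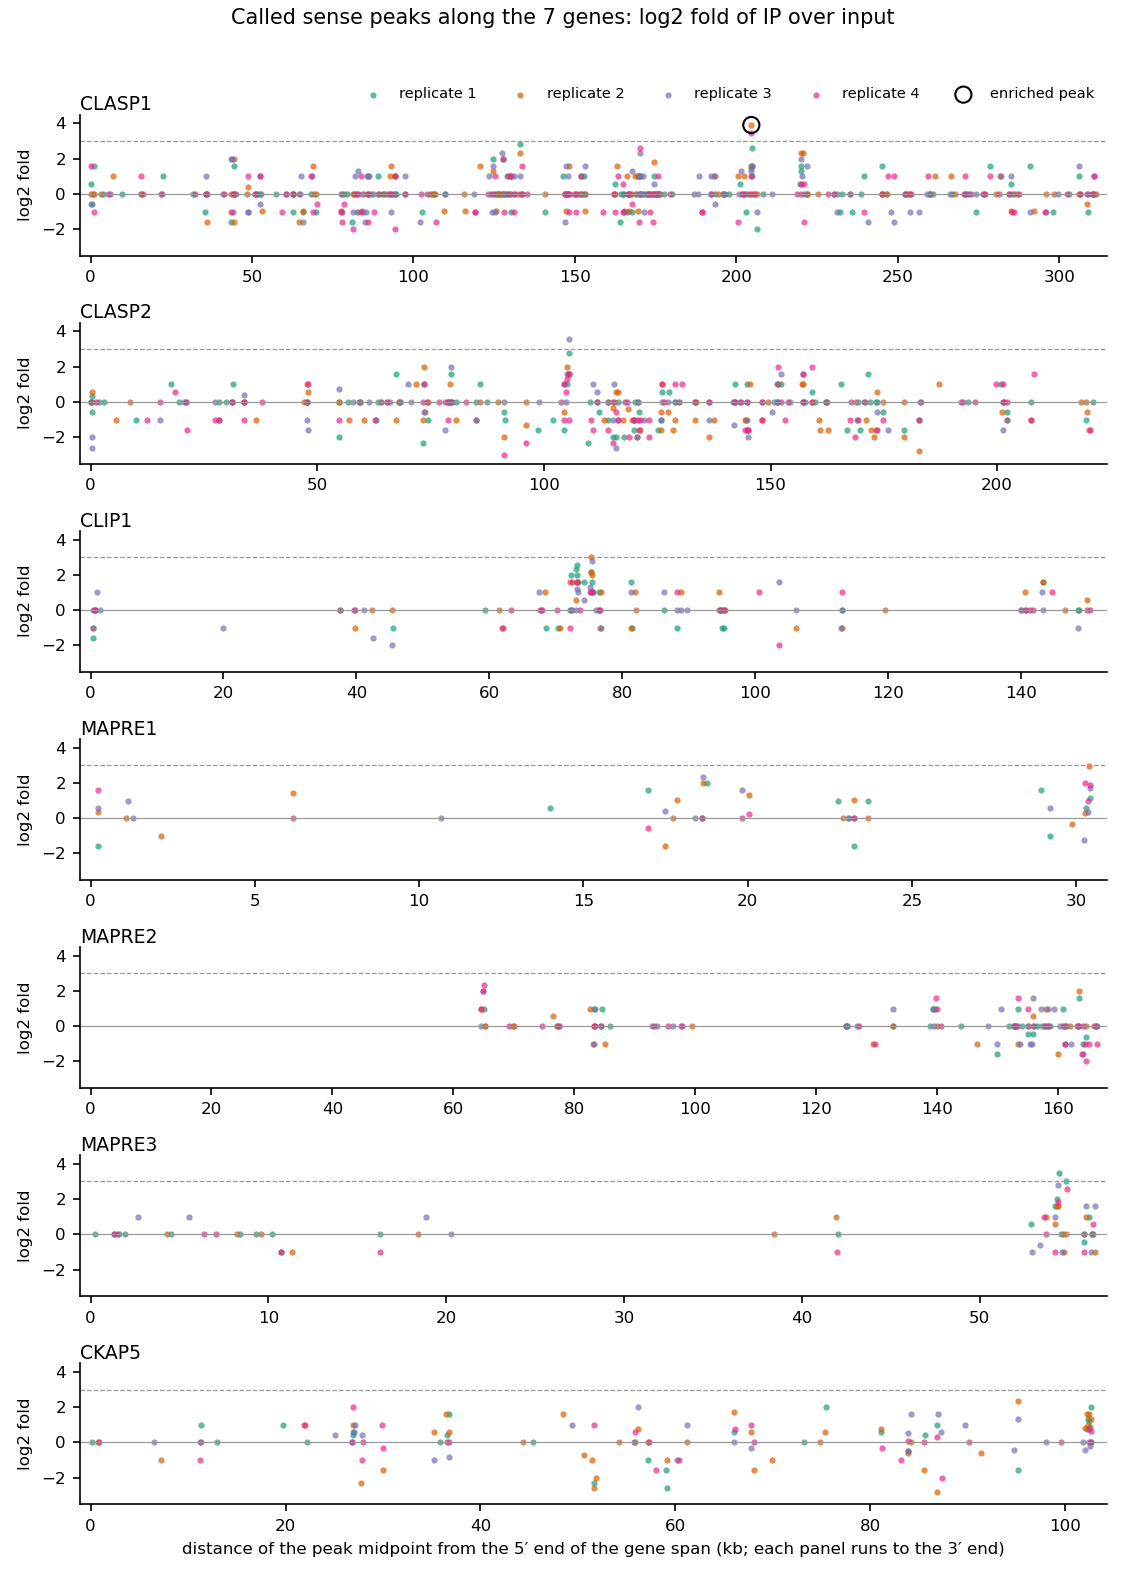
Log2 fold of IP over input of every sense peak (y axis) against its distance in kb from the 5′ end of the gene (x axis), 1 panel per gene and 1 colour per replicate; the dashed line marks a log2 fold of 3 and the ring the only enriched peak, in CLASP1. Peaks crowd at 0 and lie on both sides of it. The highest ones stand 204.6 kb into CLASP1, near the middle of CLASP2 and CLIP1 and at the 3′ ends of MAPRE1 and MAPRE3.

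Only 1 of the 1352 peaks was enriched, with enriched meaning a log2 fold of at least 3 together with a −log10 p of at least 3. It lay in CLASP1 at chr2:121444723-121444902 in replicate 2, with a log2 fold of 3.91 and a −log10 p of 3.56. The pooled share of enriched peaks in the 7 genes was 0.0740%, while 0.818% of the peaks of all 4 lists were enriched. Per replicate it was 0.0681% ± 0.136 in the 7 genes, because the other three lists had no enriched peak there. CLASP1 was therefore 1 of 7 genes with an enriched peak, in a series in which 8.56% of genes had one. None of the 7 genes had a region enriched in all 4 replicates, which 2.12% of genes had. With 6 genes at 0 in all 4 lists and CLASP1 at 0 in 3, the 21 pairs of genes could not be compared in the share enriched, since a sign-flip permutation gives a p of 1 for such values whatever their size.

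Several peaks stopped short of the thresholds. The CLASP1 site had a second strong peak in replicate 4, at chr2:121444756-121444872, with a log2 fold of 3.46 and a −log10 p of 2.20. CLASP2 had a peak in replicate 3 at chr3:33612684-33612774 with a log2 fold of 3.59 and a −log10 p of 2.74. MAPRE3 had one in replicate 1 at chr2:27025032-27025102 with a log2 fold of 3.46 and a −log10 p of 2.20. MAPRE1 was the reverse case: its peak at chr20:32850082-32850227 in replicate 2 had the highest −log10 p of the 7 genes, 4.31, and missed on the fold, at 2.94. In all, 5 peaks had a log2 fold of at least 3, 2 had a −log10 p of at least 3, and 38 had a log2 fold of at least 2. That last share was 2.79% ± 1.23 per replicate, against 5.62% ± 1.12 of all peaks.

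Sites that recur were examined as regions. Overlapping peaks of the 4 lists were merged into 875 regions in the 7 genes, of which 613 had a peak in 1 list, 133 in 2, 75 in 3 and 54 in all 4. The 54 were 6.17% of the regions, and 7.06% of the 701159 regions of the whole series had a peak in all 4 lists. MAPRE1 had the highest share with 4 of 27 regions (14.8%) and CLASP1 the lowest with 12 of 349 (3.44%). CLASP2 had 18 of 214, CKAP5 6 of 75, CLIP1 5 of 80, MAPRE2 5 of 89 and MAPRE3 4 of 41.

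Over the 54 regions the mean log2 fold was tested against 0 with limma. Fit and adjustment covered all 49493 regions of the series with a peak in all 4 lists (Benjamini-Hochberg, threshold 0.05). This entry rule leans upwards. Over the series, regions of all 4 lists held 122425 peaks with a log2 fold above 0.5 and 47259 below −0.5. Peaks found in 1 list only held 102833 and 109203. Counts higher and lower are therefore read only against the shares of all regions, which met the same rule. In the 7 genes 8 regions (14.8%) lay higher than input, against 21.1% of all regions tested. None lay lower, against 1.81% of all regions. At an unadjusted p under 0.05, 13 lay higher (24.1%, against 32.8% of all regions) and 2 lower (3.70%, against 4.47%). The median of the regional means was 0.19 in the 7 genes and 0.50 over all regions, and no regional mean in the 7 genes reached a log2 fold of 3, which 1574 regions of the series did. The 8 regions were in 5 of the genes, 3 of them in CLIP1, 2 in CLASP1 and 1 each in CLASP2, MAPRE1 and MAPRE3. No region of CKAP5 or MAPRE2 passed.

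These 8 calls need all 4 replicates: leaving out any 1 of them ended each call, with adjusted p between 0.0589 and 0.176. For these fits a region needed a peak only in the lists kept, so more regions were tested. Over the series, leaving out replicate 1 or replicate 4 left 0 higher, of 64176 and of 63168 regions. Leaving out replicate 2 left 1271 of 62378 (2.04%), and leaving out replicate 3 left 2470 of 62794 (3.93%). The calls were thus lost with fewer values and a changed set of regions at once. Tested against a log2 fold of 1 in place of 0, none of the 8 passed.

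The value of a region in a list was that of its peak with the largest −log10 p, and this leans upwards, because all 350 peaks of the 7 genes below input carry a −log10 p of 0. It matters only where a list has more than 1 peak in a region, as in 12 of the 54. With the mean of the peaks of a list in its place, an alternative chosen after the data were seen, 7 of the 8 regions still passed and the MAPRE1 region did not. With the lowest peak of each list, 4 passed: the strongest CLASP1 region, the MAPRE3 region and the first 2 CLIP1 regions described here. None lay lower than input under either.

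**Figure D2:**
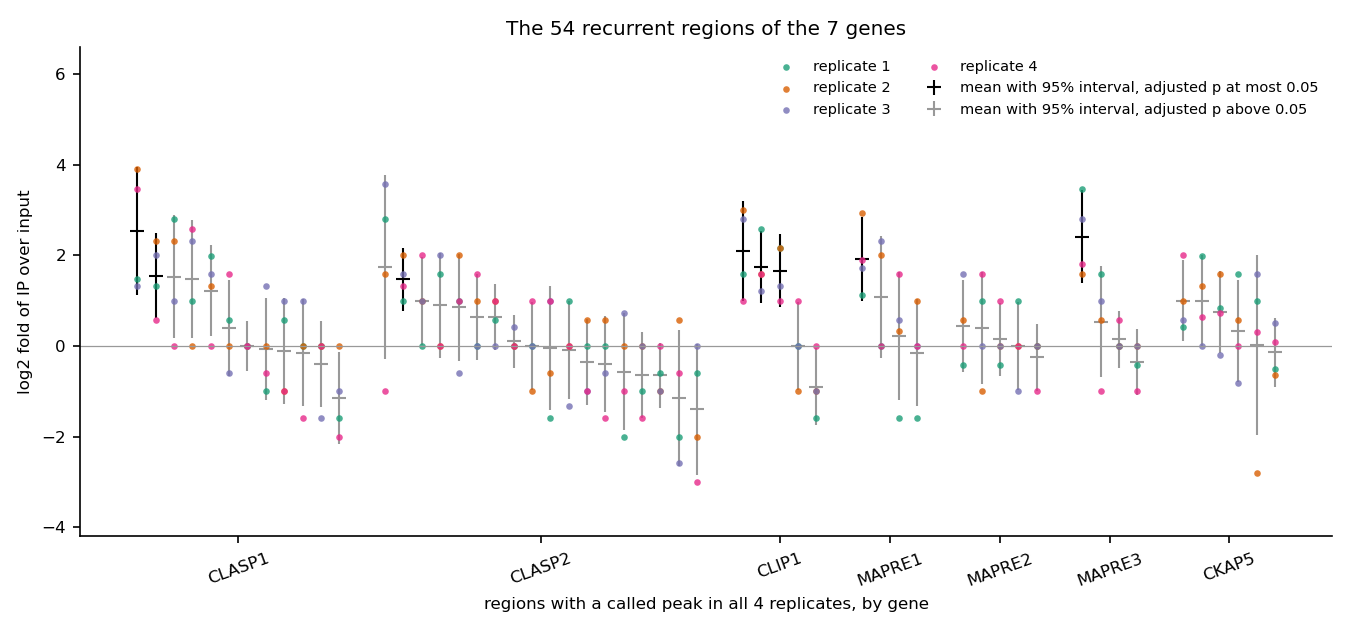
Log2 fold of IP over input (y axis) of the 54 regions with a peak in all 4 replicates, grouped by gene (x axis) and ordered by their mean within a gene; points are replicates, and bars give the mean with its 95% interval, in black for the 8 regions with an adjusted p of at most 0.05. CLIP1 has 3 such regions, CLASP1 2, and CKAP5 and MAPRE2 have none.

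For the EB genes, the MAPRE1 region lay at chr20:32849992-32850232, 0.294 kb from the 3′ end of the span. Its log2 folds were 1.14, 2.94, 1.72 and 1.89 in replicates 1 to 4, a mean of 1.92 ± 0.75 (limma, adjusted p = 0.0212). These values, with −log10 p of 1.28, 4.31, 2.21 and 2.76, are those of the best peak, and each list had more than 1 peak in the region. The mean over the peaks of a list was 0.86, 1.60, 0.27 and 1.63, which averaged 1.09 ± 0.65 and did not pass (adjusted p = 0.0796). The lowest peak of replicate 3 lay below input, at −1.22.

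The MAPRE3 region lay at chr2:27024936-27025102, 2.20 kb from the 3′ end. Its log2 folds were 3.46, 1.59, 2.81 and 1.81, a mean of 2.41 ± 0.88 with the lowest adjusted p of the 7 genes (limma, 0.0161). Replicates 1 and 3 stood above 2 and 4, and all were above input. The −log10 p values of the best peak in each list were 2.20, 0.43, 1.41 and 0.75, and 2 lists had more than 1 peak in the region.

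MAPRE2, the third EB gene, showed no such site. The highest mean of its 5 recurrent regions was at chr18:35132854-35132942, with log2 folds of −0.42, 0.59, 1.59 and 0.00 and a mean of 0.44 ± 0.87 (limma, adjusted p = 0.485). The replicates lay on both sides of input. The adjusted p does not show that MAPRE2 differs from its paralogs, and that difference was not tested by region.

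In CLIP1 the 3 regions lay within 2440 nt of each other, near the middle of the gene. The first, chr12:122347425-122347627, had log2 folds of 1.58, 3.0, 2.81 and 1.00, a mean of 2.10 ± 0.96 (limma, adjusted p = 0.0265). The next, chr12:122347628-122347763, begins at the following base and had log2 folds of 2.17, 2.17, 1.32 and 1.00, a mean of 1.67 ± 0.60 (adjusted p = 0.0218). The third, chr12:122349663-122349864, had log2 folds of 2.58, 1.59, 1.22 and 1.58, a mean of 1.74 ± 0.59 (adjusted p = 0.0190). All 12 values lay above input. None of their peaks reached a −log10 p of 3. CLIP1 also had a recurrent region near its start, at chr12:122422517-122422612, whose log2 folds of −1.59, −1.0, −1.0 and 0.00 averaged −0.90 ± 0.66 (adjusted p = 0.121).

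The strongest CLASP1 region, at chr2:121444723-121444922, held the only enriched peak. It lay 204.6 kb from the 5′ end and 107.0 kb from the 3′ end, and its log2 folds were 1.48, 3.91, 1.32 and 3.46. The mean was 2.54 ± 1.33 (limma, adjusted p = 0.0310, 95% interval 1.13 to 3.96). Replicates 2 and 4 stood well above 1 and 3. A second CLASP1 region, chr2:121429192-121429430, had log2 folds of 1.32, 2.32, 2.00 and 0.58, a mean of 1.56 ± 0.77 (adjusted p = 0.0383), with no peak of −log10 p above 1. The lowest mean in CLASP1 was −1.15 ± 0.87 at chr2:121568237-121568381 (adjusted p = 0.104).

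In CLASP2 the region with the highest mean, chr3:33612683-33612777, had log2 folds of 2.81, 1.59, 3.59 and −1.0. The mean was 1.74 ± 2.01 (limma, adjusted p = 0.186), with replicate 4 below input where the other three were above it. The region that passed lay beside it, at chr3:33613172-33613307, and both fell in a stretch of 625 nt. Its log2 folds were lower but closer together, at 1.00, 2.00, 1.59 and 1.32, a mean of 1.48 ± 0.42 (adjusted p = 0.0203). The lowest mean among the 54 regions was in CLASP2 as well, at chr3:33626988-33627070, with log2 folds of −0.59, −2.0, 0.00 and −3.00 and a mean of −1.40 ± 1.36 (adjusted p = 0.143).

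In CKAP5 the highest mean was at chr11:46819300-46819405, with log2 folds of 0.41, 1.00, 0.59 and 2.00. All 4 lay above input, and the mean of 1.00 ± 0.71 did not pass (limma, adjusted p = 0.106). A further recurrent region, chr11:46762392-46762501, lay on the span of SNORD67, a small nucleolar RNA gene inside CKAP5. Its log2 folds of −0.52, −0.63, 0.52 and 0.09 lay around 0, and a peak there cannot be told apart between CKAP5 and SNORD67.

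The 8 regions were between 136 and 241 nt long, 6 lay more than 5 kb from both ends of their gene, and the MAPRE1 and MAPRE3 regions were the 2 within the last 5 kb. The log2 folds of the 54 regions were related between lists with Spearman's rho of 0.271 to 0.531 over the 6 pairs of lists (mean 0.374), against 0.463 to 0.477 (mean 0.468) over all 49493 regions. These are correlations across regions, which share a library in each list and are not independent replicates.

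Enriched peaks were so few that the balance of peaks above and below input was examined too. It is given as the net share: the percent of a gene's peaks with a log2 fold above 0.5 minus the percent with one below −0.5. This measure was chosen after the data were seen. The CLASP genes, alike in density, lay apart on it. CLASP2 had a net share of −15.1, −23.2, −18.1 and −24.5 percentage points in replicates 1 to 4 (−20.2 ± 4.39), with 64 peaks above and 136 below. CLASP1 had 9.84, 6.87, 9.48 and −7.26 (4.73 ± 8.10), with 125 above and 102 below. CLASP2 was the lower of the pair in 4 of 4 replicates and the ranges did not overlap, with a mean difference of 24.95 ± 5.57 percentage points (exact two-sided sign-flip permutation p = 0.13, the smallest possible, and 0.175 adjusted over the 21 pairs).

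The other genes lay above 0 on average. MAPRE1 had 38.5, 26.7, 35.7 and 30.0 (32.7 ± 5.35), with 24 peaks above and 7 below. CLIP1 had 16.7, 18.2, 10.8 and 20.7 (16.6 ± 4.19). CKAP5 had 25, 7.5, 26.7 and 10.0 (17.3 ± 9.94), with replicates 1 and 3 above 2 and 4. MAPRE3 had 25, 16.7, 21.4 and −7.14, so that replicate 4 went the other way. MAPRE2 had 17.2, 0, 2.44 and 0 (4.92 ± 8.29), a mean set mostly by replicate 1.

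Over all peaks of a list the net share was 7.84 ± 1.81, so a gene is read against that value. Set against the list's own value, CLASP2 was lower by 28.1 ± 4.35 percentage points, MAPRE1 was higher by 24.9 ± 5.40 and CLIP1 was higher by 8.74 ± 3.44, each in 4 of 4 replicates (exact two-sided sign-flip permutation p = 0.13 for each, 0.292 adjusted over the 7 genes). For CKAP5 the p was 0.25, for MAPRE2 and MAPRE3 0.375, and for CLASP1 0.625. CLASP2 was the 1 gene of the 7 below 0 in all 4 lists, where 13.3% of 5030 genes with at least 10 peaks in each list were. CLIP1, MAPRE1 and CKAP5 were above 0 in all 4, which is 3 of 7, where 30.3% of those genes were. For CKAP5 this depends on the limits: with 0.9 and −0.9 in place of 0.5 and −0.5, chosen after the data were seen, its net share was 6.22 ± 11.2, above 0 in 2 lists and below 0 in 2. Counted from the lowest of the 5030 genes, CLASP2 ranked 421, CLASP1 2677, MAPRE2 2698, MAPRE3 3502, CLIP1 3707, CKAP5 3745 and MAPRE1 4329. The median gene stood at 3.43, with quartiles of −8.29 and 17.7.

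**Figure D3:**
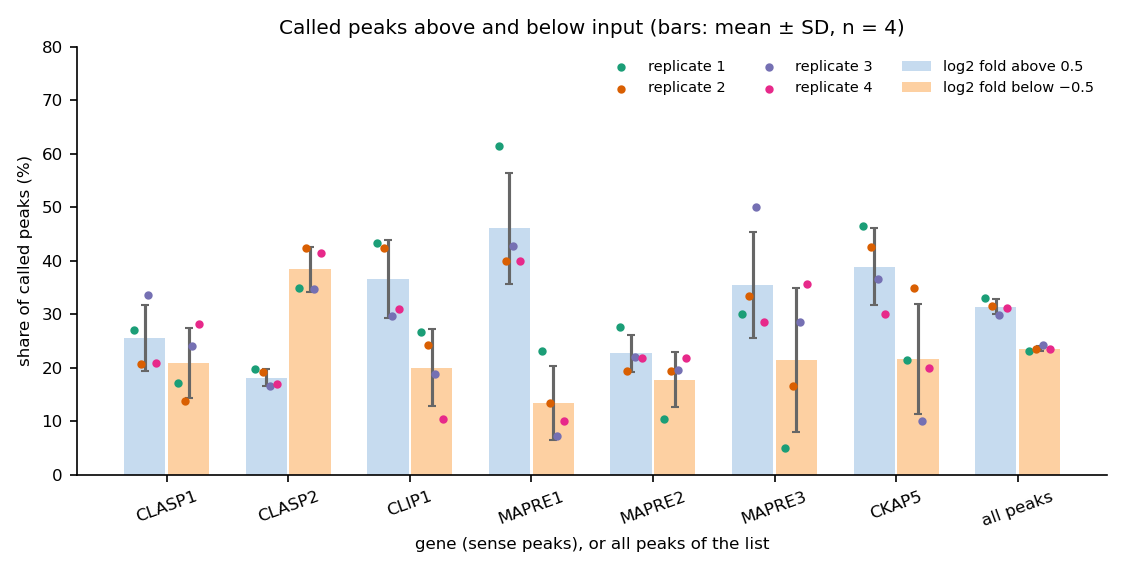
Percent of sense peaks (y axis) with a log2 fold above 0.5 (blue) and below −0.5 (orange) for each gene and for all peaks of a list (x axis); bars are means ± SD over 4 replicates and points are replicates. In CLASP2 the share below input (38.4%) exceeds the share above (18.2%), and in MAPRE1 the order is the other way round.

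Read against all peaks, the net share of CLASP2 was low in peaks of 1 list, in regions of 2 or 3 lists and in regions of all 4. It lay below 0 only in peaks of 1 list and in regions of 2 or 3 lists. Peaks found in 1 list only had −24.6 ± 10.7 (143 peaks), those in regions of 2 or 3 lists −30.8 ± 11.2 (130 peaks), and those in regions of all 4 lists 7.5 ± 15.0 (78 peaks, 30 above and 24 below). That last value came from replicate 2, at 30.0, since the other three were at 0. Over all peaks of the series the net share was higher the more lists a region had, at −1.28 ± 1.45, 4.59 ± 1.80 and 32.1 ± 2.04, and in the 7 genes together it was −6.77 ± 9.49, 1.20 ± 5.69 and 26.5 ± 6.65. CLASP1 had −3.14 ± 12.7, 10.6 ± 6.90 and 29.3 ± 21.9 in the same order.

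The CLASP genes also lay apart in how often a peak came back in a given other list, averaged over the other lists. For CLASP2 this share ran from 35.8% to 44.9% over the 4 replicates (39.1% ± 4.02), and for CLASP1 from 22.3% to 27.3% (25.8% ± 2.33). These ranges did not overlap, and the difference was not tested. The share was 52.9% ± 14.0 in MAPRE1, 41.3% ± 3.26 in CKAP5, 38.9% ± 4.05 in MAPRE3, 36.7% ± 6.51 in CLIP1 and 32.0% ± 5.09 in MAPRE2. Over the 7 genes it was 33.8% ± 1.15, and over all peaks 36.5% ± 0.701.

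A wider list of 32 genes of other plus-end and plus-end-associated proteins was set beside the 7. Strand was known for 30 and 27 had peaks, 4184 in all. Of these, 25 were enriched (0.598%, against 0.818% of all peaks), in 4 of the 27 genes where 8.56% of all genes had an enriched peak: DCTN1 held 16, TACC3 5, CDK5RAP2 3 and GTSE1 1, and without DCTN1 and TACC3 only 4 enriched peaks were left. DCTN1 encodes the large subunit of dynactin, which joins the dynein motor to microtubule ends through a CAP-Gly domain of the kind CLIP-170 has. It was the only gene of the list with a region enriched in all 4 replicates, at chr2:74375733-74375921 on the − strand, with log2 folds of 3.81, 5.13, 4.25 and 4.00 and a mean of 4.30 ± 0.58. In the limma fit 39 of 213 regions of the list (18.3%) lay higher than input, against 21.1% of all regions, and 1 lay lower (0.469%, against 1.81%), in PAFAH1B1. DCTN1 had 10 of the 39, GTSE1 6, CDK5RAP2 5 and TACC3 4. TACC3 encodes a partner that binds ch-TOG, whose own gene CKAP5 had no region that passed.

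The genes nearest to CLASP1 in their share of enriched peaks over the 4 replicates, by Euclidean distance among 2622 genes with at least 100 peaks, were NF1 (distance 0), FAM53B (0.105) and GPHN (0.208). NF1 had the same values as CLASP1, 0, 0.763%, 0 and 0, as each had 1 enriched peak among its peaks of replicate 2. With CLASP1 counted in, 2089 of the 2623 genes had no enriched peak, so this likeness rests on a single peak in each gene.

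On the strand opposite to the 7 genes there were 14 peaks, 3, 4, 3 and 4 in replicates 1 to 4, and all lay within the CLASP1 span at RNU4ATAC (chr2:121530880-121531009), the gene of the U4atac small nuclear RNA of the minor spliceosome. Their log2 folds ran from −4.81 to −1.09, all below input. They were not counted as CLASP1 peaks. In all, 10 other annotated genes overlapped the spans of the 7, and sense peaks inside them were counted with the 7 genes.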

How the data were processed

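RBFOX2 eCLIP of HEK293T cells was analysed from 4 deposited peak lists, each an IP against the input of the same number. The lists have no header. From their values, the authors' columns were read as −log10 p (0 to 400) and log2 fold of IP over input. STAR 2.7.7a, UMI-tools 1.1.1, cutadapt 3.2 and the builds hg38 and GRCh38.p13 are named per the submitters' processing notes; the peak caller, p-value test, its adjustment, scaling and filters are not given in the sources used here. Gene spans and strands came from RefSeq tables of GRCh38.p14. Peaks of the 4 lists were merged at 1 nt of overlap on 1 strand. The value of a region in a list was the log2 fold of whichever of its peaks had the largest −log10 p. Regions were tested with limma 3.58.1 (intercept only, eBayes without trend, two-sided) in R 4.3.3, with steps checked on simulated data. There the test recovered 47.0% of 200 regions given a known log2 fold in a table of 49493, with 0 false calls. The real fit called far more regions, 10424 higher and 895 lower. Real folds also repeat at a few values, which the simulated noise did not copy. Neither figure therefore gives the power or the rate of false calls in these data. A region that did not pass may still differ from input. Gene values were compared by exact sign-flip permutation in Python 3.11.15. The 7 genes, the wider list and the tests were chosen with earlier results of these data known. By rule, the region of highest mean per gene and the lowest of all were named; the other named regions were picked after their values were seen. TACC1 and MTUS1 were not analysed here.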

Additional observations from a re-analysis of the deposited data

Results flagged for a closer look

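Among 29 sets of 4 replicate values examined, 3 held a replicate far from the rest by Dixon's test. Its rate of about 1 set in 20 by chance holds for continuous values. Sets with tied values, such as the enriched share of CLASP1 and the net share of MAPRE2, do not keep to that rate. In replicate 2, 0.763% of CLASP1 peaks were enriched, the single enriched peak of the 7 genes, while the other replicates had none; a gene with 1 enriched peak in all must stand out in this way, so this says nothing of replicate 2. The net share of MAPRE2 was 17.2 percentage points in replicate 1 and at most 2.44 in the others. CKAP5 had 40 peaks in replicate 2 and 28 to 30 in the others.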

How the results depend on the processing

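Of 52 alternative values of the counts and shares, 40 kept within their limits, 12 moved and 0 reversed. Many of the 40 could hardly move. Regions enriched in all 4 replicates and regions lower than input were 0 to begin with. The share of enriched peaks, 0.0681%, had a limit of 1 SD, 0.136, so even a fall to 0 counted as kept. The tally therefore does not show that the results are firm. The number of enriched peaks in the 7 genes was 1, became 0 with the −log10 p limit raised to 5, 0 with only a log2 fold limit of 4, and 2 with the log2 fold limit lowered to 1, and ranged from 0 to 1 with a replicate left out (0 without replicate 2). The only region with an enriched peak had some peak, enriched or not, in all 4 replicates, so that 1 region was shared by all 4 under this looser rule in place of 0. The number of regions higher than input was 8, and became 0 against a log2 fold of 1, 4 with the lowest peak of each list, 2 of 2 tested where a −log10 p of at least 3 was asked in any list (a filter that selects regions above input, where 99.5% of 3356 regions passed), and 0 with each replicate left out in turn. For the 4 named regions of highest mean that passed, 16 of 38 alternatives kept the call, 22 lost it and 0 reversed; the 4 that had not passed did so under none of 36. The net share of CKAP5 was 6.22 with limits of 0.9 and −0.9, and that of MAPRE1 39.7 over peaks of at least 20 nt, these and the lowest peak being alternatives added after the data were seen; the other 40 of 42 stayed within 1 SD. The share of enriched peaks with GCATG was not run. No paired analysis was possible because the pairing of IP and input by number is built into every log2 fold, so fits with and without that pairing cannot be compared. Depth is unknown, and the reads behind a fold were not counted. Many log2 folds repeat at a few values, as ratios of small whole numbers do. The commonest fold of each list was within rounding of 0. In replicate 1 a log2 fold of 1.58 with a −log10 p of 0.204 stood in CLASP1, CLASP2 and CKAP5 alike. In the 7 genes 79.3% ± 9.87 of peaks carried a −log10 p of 0, against 74.1% ± 8.03 of all peaks.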
